A study of Homo sapiens with 3 samples.

Results

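The cytosolic ribosomal protein genes encode the proteins of the ribosome that translates messages in the cytoplasm. They were chosen by gene symbol as the protein-coding RPL, RPLP, RPS and RPSA genes, without the kinases and paralogues of similar name, and 77 of 19866 protein-coding genes matched, 46 of the large and 31 of the small subunit. Chromatin immunoprecipitation followed by sequencing (ChIP-seq) had been made for ARID1B, a DNA-contacting subunit of BAF, the mammalian form of the SWI/SNF chromatin remodelling machinery, in HEK293FRT cells, a human embryonic kidney line for which the labels state no genotype change and no treatment. The series held 3 samples, namely 2 ARID1B ChIP replicates, each with its own peak list, and 1 input, for which no peaks were analysed here. Whether the replicates came from separate cultures is not stated, so the spread between them may be technical. Replicate 1 had 1792 peaks and replicate 2 had 1820, with median widths of 290 and 300 bp. Each peak carried a score from the authors, from 10 to 1537 (median 74) in replicate 1 and from 11 to 1642 (median 75) in replicate 2, on a scale that is not stated. Scores were therefore read only as ranks within a list. No read counts come with the peaks, so the depth is unknown, and peaks give no expression with which to check the cell line.

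Ribosomal proteins and ribosomal RNA are assembled into a large and a small subunit, and the protein genes are transcribed by RNA polymerase II from strong, compact promoters in every growing cell. Most of these genes are short, and many carry small nucleolar RNA (snoRNA) genes in their introns. BAF complexes are best known for sliding and evicting nucleosomes at promoters and enhancers. The members' annotated lengths ran from 1335 to 27723 bp with a median of 5011 bp, against a median of 24666 bp for other protein-coding genes. Positions are on hg38, and gene ends are those of RefSeq.

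ARID1B regions found in both replicates lay at 8 ribosomal protein genes, and all 8 were within 1000 bp of the end where transcription stops. The genes were RPL41, RPL4, RPL17, RPL26, RPL13 and RPL18 of the large subunit and RPS2 and RPS28 of the small subunit. A region is a set of overlapping peaks (at least 1 bp) that holds peaks of both lists, and a gene was called reached when a region lay inside it or within 1000 bp of either end. The share reached was 10.4% (8 of 77, exact Clopper-Pearson 95% interval 4.59 to 19.4), against 3.23% of all other protein-coding genes (639 of 19789, 2.99 to 3.48). Among other protein-coding genes no longer than the longest member, 1.49% were reached (157 of 10503); for the lists taken singly this share was 1.61% in replicate 1 and 2.46% in replicate 2. Intervals cover counting error only, and neighbouring genes can share a region.

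RPL41, which encodes one of the shortest proteins of the cell, had the highest-scoring region of the 8 in both lists. Its peaks scored 125 in replicate 1 and 266 in replicate 2, which put them at the 75.9 and 94.2 percentiles (the percentage of peaks in the list that score as high or lower). The region, chr12:56117957-56118345, covered the transcription end of RPL41 and reached 378 bp past it. Only the replicate 2 peak covered the end itself, and the replicate 1 peak began 1 bp past it. RPL4, a protein that lines the tunnel through which the new chain leaves, followed by the lower of its percentiles, with scores of 53 and 178 at chr15:66497636-66498100; in replicate 1 alone RPL13 scored higher. The RPL4 region also covered the transcription end, from 85 bp before it to 379 bp past it. Here too only the replicate 2 peak covered the end, and the replicate 1 peak lay 10 bp past it. The ranks of RPL4 lay far apart, at the 31.2 percentile in replicate 1 and the 85.9 percentile in replicate 2.

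RPL41 and RPL4 are each followed closely by another gene on the same strand, and their regions covered the start of that gene as well. ZC3H10, a zinc-finger gene, begins 299 bp past the end of RPL41, and SNAPC5, which encodes a subunit of the factor that starts small nuclear RNA transcription, begins 253 bp past the end of RPL4. The same arrangement was found at RPL17 and RPL26, both proteins near the exit tunnel. The RPL17 region (chr18:49487135-49487521, scores 49 and 76) lay 960 bp past the end of RPL17 and covered the start of C18orf32. The RPL26 region (chr17:8376410-8376786, scores 49 and 47) lay 730 bp past the end of RPL26 and covered the start of KRABD2. At KRABD2 only the replicate 2 peak covered the start, and the replicate 1 peak lay inside the gene. At both, the centre of the region was nearer to the start of the neighbour than to the end of the ribosomal protein gene, by 94 against 1153 bp at RPL17 and by 106 against 918 bp at RPL26. At RPL41 the distances were 115 and 184 bp, and at RPL4 they were 106 and 147 bp.

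The sequences before these 4 starts are shown because the regions lie on them. They are the 250 bases before the start listed by RefSeq (GRCh38.p14), written 5′ to 3′ on the strand of the named gene. Capitals mark matches, on either strand, to CCGGAAG (an ETS-type core) or GGGCGG (a GC box). The ZC3H10 sequence (chr12:56118016-56118265, plus strand), that of SNAPC5 (chr15:66497763-66498012, minus strand) and that of C18orf32 (chr18:49487235-49487484, minus strand) lay wholly under the regions, and 82 of the 250 bases of the KRABD2 sequence (chr17:8376705-8376954, minus strand) did. The replicate 2 peak alone covered these KRABD2 bases and the whole of the SNAPC5 sequence.
ZC3H10: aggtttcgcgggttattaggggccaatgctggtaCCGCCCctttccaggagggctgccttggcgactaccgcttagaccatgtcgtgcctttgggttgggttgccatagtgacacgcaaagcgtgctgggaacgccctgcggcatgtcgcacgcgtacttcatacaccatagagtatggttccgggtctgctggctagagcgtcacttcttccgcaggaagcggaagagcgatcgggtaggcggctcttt
SNAPC5: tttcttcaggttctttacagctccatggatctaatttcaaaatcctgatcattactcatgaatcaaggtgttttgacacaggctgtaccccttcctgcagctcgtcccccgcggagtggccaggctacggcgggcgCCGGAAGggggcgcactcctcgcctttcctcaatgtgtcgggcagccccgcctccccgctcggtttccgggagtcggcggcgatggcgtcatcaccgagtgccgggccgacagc
C18orf32: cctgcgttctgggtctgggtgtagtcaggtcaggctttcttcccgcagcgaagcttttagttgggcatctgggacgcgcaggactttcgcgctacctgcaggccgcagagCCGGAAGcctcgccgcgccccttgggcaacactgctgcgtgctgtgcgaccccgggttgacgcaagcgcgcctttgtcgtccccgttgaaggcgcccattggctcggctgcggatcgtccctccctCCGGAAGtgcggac
KRABD2: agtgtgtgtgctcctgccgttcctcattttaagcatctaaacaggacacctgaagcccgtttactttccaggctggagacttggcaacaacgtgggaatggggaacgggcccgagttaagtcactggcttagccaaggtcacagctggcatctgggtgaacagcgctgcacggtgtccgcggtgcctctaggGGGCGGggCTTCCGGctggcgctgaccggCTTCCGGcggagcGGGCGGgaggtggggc
The C18orf32 and KRABD2 sequences each held 2 matches to CCGGAAG, SNAPC5 held 1 and ZC3H10 none. With FAM83E, described next, 4 of 5 neighbouring starts had a match. Of the FAM83E sequence, which is not shown, 0 bases lay under the region. Such a match was present before 11.8% of the starts of all protein-coding genes with an entry (1868 of 15842), and before 10.0% of the other starts reached by shared regions (13 of 130). Before the members' own starts, where no shared region lay, it was present in 29.0% (18 of 62 with an entry). GGGCGG was present before 3 of the 5 neighbouring starts, 73.1% of the other starts reached and 56.0% of all starts. CTCTTTCC and TATAAA were found before none of the 5, and before 2.56% and 9.23% of all starts; overlaps between motifs were not removed. The matches are letters in a window and were not tested as binding sites.

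RPL18, RPS2, RPS28 and RPL13 made up the rest of the 8. The RPL18 region (chr19:48614526-48615065) had the lowest ranks, with scores of 20 and 21, at the 1.84 and 3.02 percentiles. It lay 266 bp past the end of RPL18 and 11 bp inside FAM83E, which begins 255 bp past that end on the same strand. RPS2, a protein beside the channel by which messages enter the ribosome, had scores of 28 and 22 at chr16:1961057-1961733. Its neighbour NDUFB10, a gene of mitochondrial complex I, runs towards it from the other side, so that this region lay within 1000 bp of the transcription ends of both genes. The region was 325 bp past the end of RPS2 and inside NDUFB10, 242 bp before the end of that gene. The RPS28 region (chr19:8324232-8324757, scores 30 and 68) lay 892 bp past the gene's end and inside KANK3, a gene of the opposite strand. RPL13, mutated in a skeletal growth disorder, was the exception among the 8, with a region inside the gene. Its peaks scored 69 and 48 at chr16:89565317-89565881, and the region ended 948 bp before the annotated transcription end with no other protein-coding gene in reach.

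**Figure D1:**
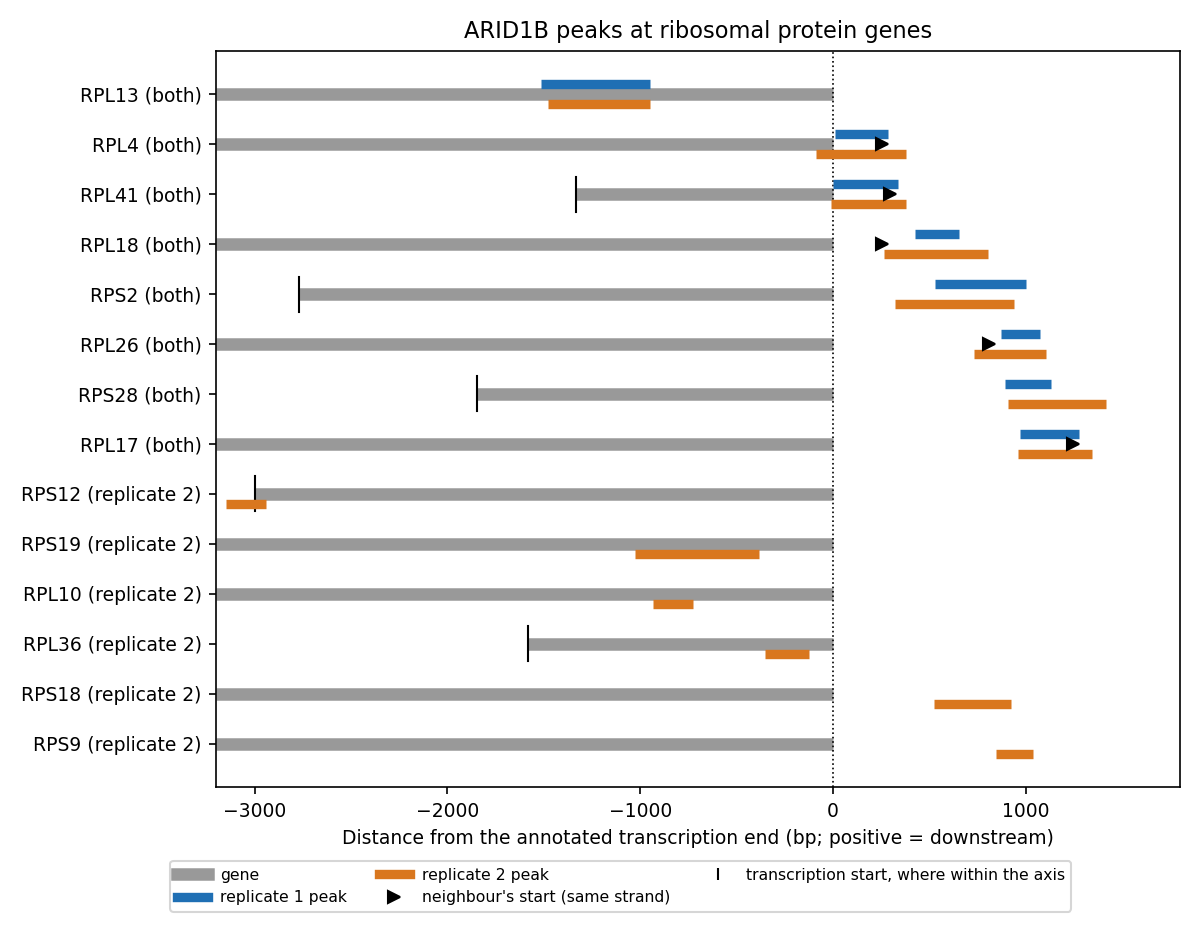
Peaks of replicate 1 (blue) and replicate 2 (orange) at 14 of the 16 ribosomal protein genes reached in either list, by distance in bp from the annotated transcription end; grey bars are the genes, cut at the left edge where longer, black ticks are transcription starts within the axis and arrowheads the starts of same-strand neighbours. Of the 8 regions found in both replicates 7 are centred past the transcription end, and RPS12 is the gene with a peak at its start.

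In distance along the gene, 7 of the 8 shared regions were centred past the transcription end and 1, at RPL13, before it. Relative to the transcription end the centres lay between -1230 bp (before it) and 1154 bp (past it), with a median of 600 bp past it. The end itself was covered by 2 of the 8 regions, at both through the replicate 2 peak only. Their widths ran from 377 to 677 bp. No region overlapped a snoRNA gene, although 4 of the 8 genes hold at least 1. Among the 61 members reached in neither list, 22 held one.

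Other protein-coding genes were reached mostly inside, away from their ends (447 of the 639 reached, 2.26% of all others). Among others no longer than the longest member this did not hold, with 34 of 10503 reached inside (0.324%) and 79 of 8206 at the start. Of the members 0 of 77 were reached inside (upper 95% bound 4.68%), which cannot be told apart from either inside share. At gene ends, starts led among the others. Shared regions reached 0 of 77 members at the start (upper 95% bound 4.68%), against 0.856% of other protein-coding genes with a known direction (135 of 15780). At the transcription end they reached 8 of 77 members (10.4%) and 0.234% of the others (37 of 15780). Among others no longer than the longest member these shares were 0.963% at the start and 0.378% at the transcription end. Of all gene ends reached among the others, 21.5% were transcription ends (37 of 172, 95% interval 15.6 to 28.4), and among the members 100% were (8 of 8, 63.1 to 100). A region can count at more than 1 gene. Of the 8 member regions, 5 also lay at the start of a neighbour and count among the 135 starts of the others. In replicate 1 alone the shares were 100% (9 of 9) and 25.1% (47 of 187), and in replicate 2 alone 93.3% (14 of 15, 68.1 to 99.8) and 22.3% (66 of 296). Restricting the others to genes no longer than the longest member gave 28.2% for shared regions (31 of 110), 31.4% in replicate 1 and 29.3% in replicate 2. The members accounted for 8 of the 45 protein-coding genes with a known direction reached at the transcription end by a shared region. NDUFB10, reached by the RPS2 region, is among the other 37.

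**Figure D2:**
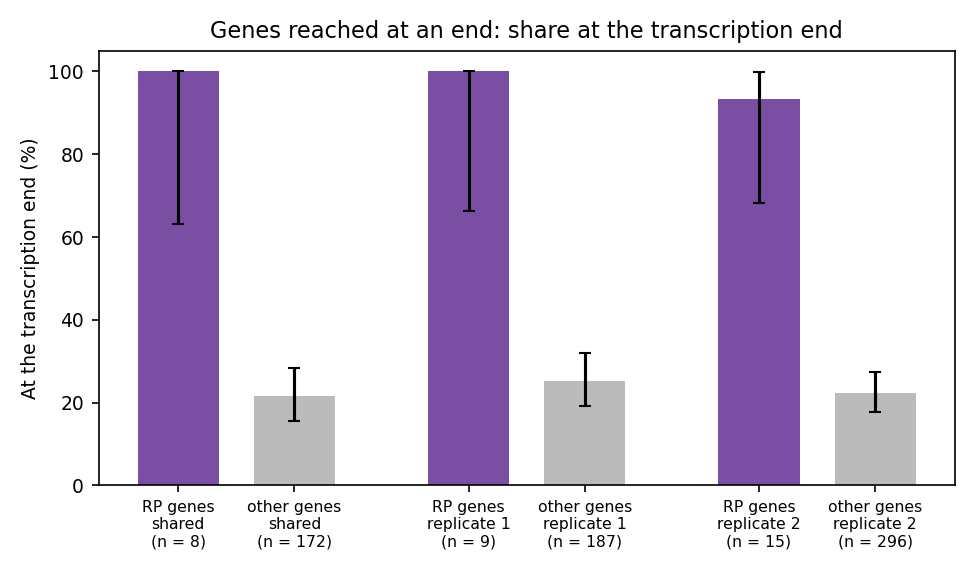
Percentage of the gene ends reached that were transcription ends, for ribosomal protein genes (purple) and other protein-coding genes with a known direction (grey), by shared regions and by each list; bars carry exact 95% intervals and n is the number of gene ends reached. The ribosomal protein genes stand at 93.3 to 100% and the other genes at 21.5 to 25.1%. A region can count in both groups, and 5 of the 8 shared regions at ribosomal protein genes also count at the start of a neighbour.

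Most of the regions at members had a neighbouring gene in reach. Of the 8 shared regions at members, 7 also reached another protein-coding gene (87.5%), against 42 of 156 other shared regions at a protein-coding gene end (26.9%). All 8 member regions lay at a transcription end but only 33 of the 156 others did, so these sets also differ in the end reached. Of the 8, 5 also lay at the transcription start of a neighbour (62.5%, 95% interval 24.5 to 91.5). The same was true of 10 of 33 other shared regions at a transcription end (30.3%, 15.6 to 48.7), and the intervals overlap. Members were then divided by whether another protein-coding gene has an end within 1000 bp of their transcription end. Shared regions reached the transcription end in 6 of 18 members with such a neighbour (33.3%, 13.3 to 59.0) and in 2 of 59 without (3.39%, 0.413 to 11.7), namely RPL17, whose neighbour begins farther away, and RPL13. For other protein-coding genes the shares were 0.773% (18 of 2328) and 0.141% (19 of 13452). A peak list does not tell to which of the adjoining genes a region belongs.

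Both subunits were represented, and their shares could not be separated at this number of genes. Shared regions reached 6 of 46 large-subunit genes (13.0%, 95% interval 4.94 to 26.3) and 2 of 31 small-subunit genes (6.45%, 0.791 to 21.4). In replicate 1 the counts were 6 and 3 (13.0% and 9.68%), and in replicate 2 they were 8 and 7 (17.4% and 22.6%). The order of the subunits thus turned round between the lists, and the intervals overlapped in each. Peaks of replicate 2 alone reached 5 small-subunit and 2 large-subunit genes.

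**Figure D3:**
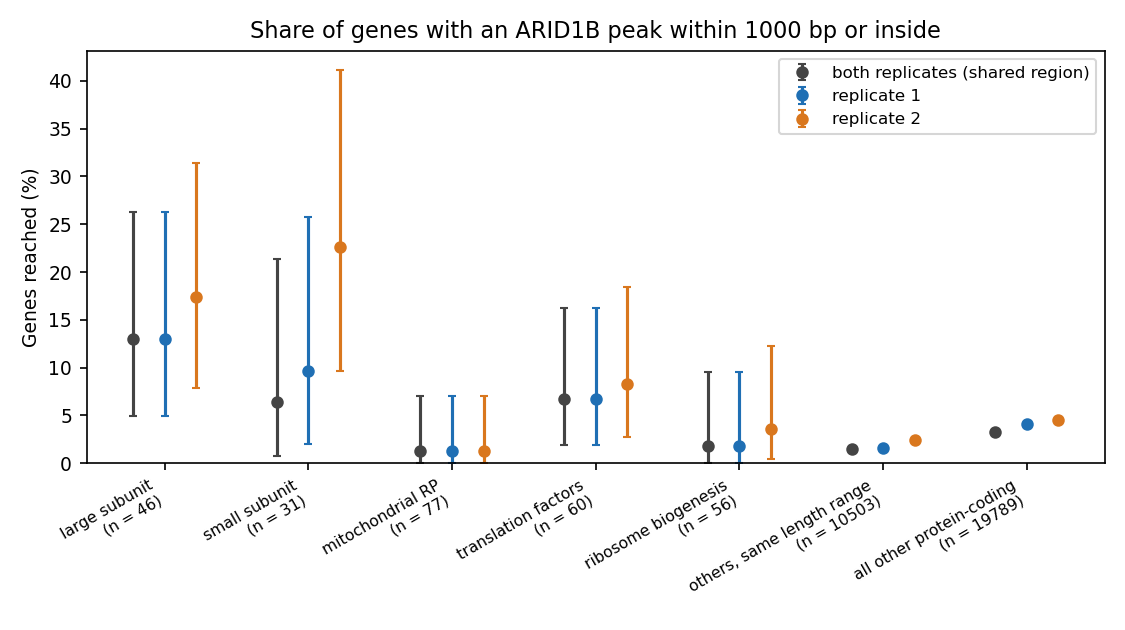
Percentage of genes with a peak inside or within 1000 bp of an end, by shared regions (dark), replicate 1 (blue) and replicate 2 (orange), with exact 95% intervals, for the ribosomal protein genes of each subunit, other genes of protein synthesis and the remaining protein-coding genes. The large subunit stands at 13.0, 13.0 and 17.4%, the small subunit at 6.45, 9.68 and 22.6%, and all other protein-coding genes at 3.23, 4.07 and 4.48%.

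Replicate 2 reached more of the members than replicate 1. Replicate 1 reached 9 of 77 (11.7%, 95% interval 5.49 to 21.0) against 4.07% of other protein-coding genes, and replicate 2 reached 15 of 77 (19.5%, 11.3 to 30.1) against 4.48%. Of the members reached in replicate 1, 88.9% had a shared region, and of those reached in replicate 2, 53.3%. Among other protein-coding genes these shares were 79.4% and 72.0%. Replicate 2 also reached more of the other genes at their ends, 1.46% at the start against 0.887% in replicate 1, and 0.418% at the transcription end against 0.298%. The part of this difference between the libraries in the counts of members was not tested.

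Members with a peak in replicate 2 only numbered 7, among them the 6 genes RPS19, RPS18, RPS12, RPL10, RPS9 and RPL36. RPS19, the gene most often mutated in Diamond-Blackfan anaemia, had the highest of these peaks, with a score of 108 (70.6 percentile) at chr19:41871900-41872540. It lay inside the gene, 385 bp before the transcription end. RPS18 scored 46 at chr6:33277034-33277436, 523 bp past its end, where the peak overlapped an end of B3GALT4, a glycosyltransferase gene. The other 4 of these 6 scored 20 to 30, none above the 7.64 percentile of the list. Peaks of RPL10 (29), a protein that joins the large subunit late, and RPL36 (20) lay inside the genes, 727 and 126 bp before the transcription end. At both, the end of a gene of the opposite strand was in reach, that of DNASE1L1 at RPL10 and that of LONP1, a mitochondrial protease gene, at RPL36. The peak of RPS9 (27), a small-subunit protein, lay 844 bp past the end with no other protein-coding gene in reach. The nearest replicate 1 peak to these 6 peaks was between 70970 bp (RPS9) and 18270013 bp (RPL10) away.

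RPS12 was the member reached at its start, 1 of 77 in replicate 2 (1.30%), near the 1.46% of other protein-coding genes with a known direction (230 of 15780). Its replicate 2 peak (chr6:132814417-132814621, score 30, 7.64 percentile) covered the start, with its centre 50 bp before it, and the nearest replicate 1 peak was 1073015 bp away. The 250 bases before the start (chr6:132814319-132814568, plus strand), of which the last 152 lay under the peak, are shown because the peak lay on part of them. They held no match to any of the 4 motifs.
RPS12: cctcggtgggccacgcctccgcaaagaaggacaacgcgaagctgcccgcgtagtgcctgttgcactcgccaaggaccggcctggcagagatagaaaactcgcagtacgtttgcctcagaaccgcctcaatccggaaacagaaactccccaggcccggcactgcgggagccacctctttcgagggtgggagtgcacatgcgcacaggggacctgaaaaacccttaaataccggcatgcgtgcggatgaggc

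The regions at members ranked low in the lists. The lower of the percentiles of a region in the lists had a median of 25.3 over the 8 members' regions and ran from 1.84 at RPL18 to 75.9 at RPL41. Over the 156 other shared regions at protein-coding gene ends the median was 48.3. In replicate 1, 1 of the 8 scored at or above the median of the list (RPL41), and in replicate 2, 3 did (RPL41, RPL4 and RPL17). The rank was higher in replicate 2 at 5 of the 8 regions, and at 121 of the 156 other regions at gene ends (77.6%).

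**Figure D4:**
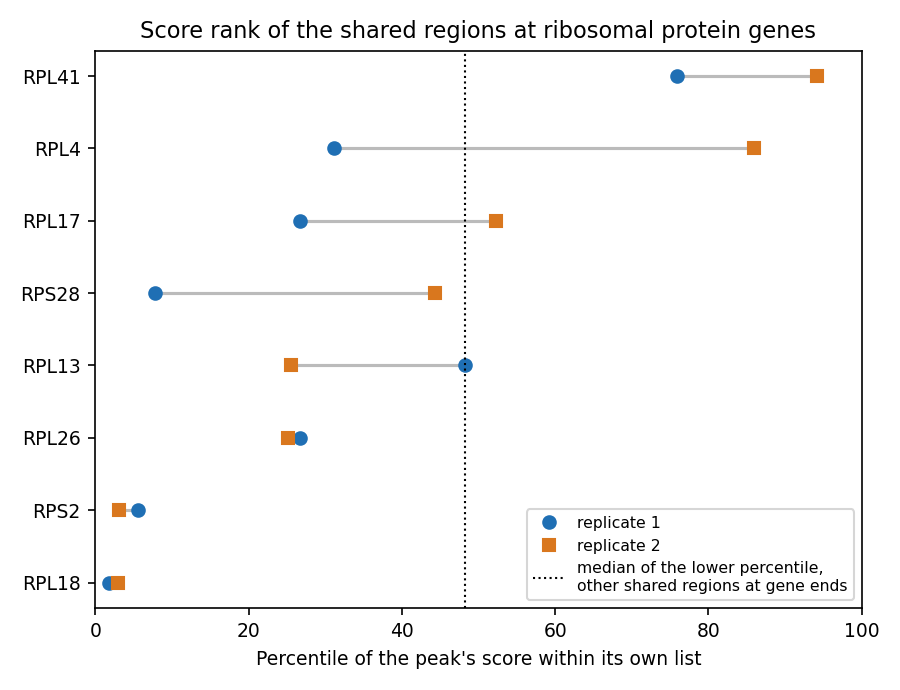
Percentile of the score within its own list for the 8 shared regions at ribosomal protein genes, in replicate 1 (blue circles) and replicate 2 (orange squares); the dotted line is the median lower percentile of the 156 other shared regions at gene ends, 48.3. RPL41 lies above the line in both lists, RPL18, RPS2, RPS28 and RPL26 lie below it in both, RPL4 and RPL17 cross it, and RPL13 lies on it in replicate 1 and below it in replicate 2. The points are percentiles in a single list and the line is a median of lower percentiles. A point above the line therefore need not rank above the other regions in that list.

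The other 61 members had no peak in the window in either list. Their median distance to the nearest peak of either list was 485 kb, and 49 of the 61 had none within 100000 bp. Over all 77 members, reached or not, the median was 247 kb, against 478 kb over all other protein-coding genes. Just outside the window were RPL23A, with a replicate 2 peak 1245 bp past its transcription end (score 32), RPSA, with peaks 1448 bp past it in replicate 2 (36) and 1728 bp in replicate 1 (24) that did not overlap, and RPL3, with a replicate 2 peak 1628 bp past it (38). Just inside were RPL17 at 960 bp and RPS28 at 892 bp. Next came RPL13A, with a replicate 1 peak 8295 bp away, and RPL28, with peaks 46044 and 46064 bp away. Members lay on 21 chromosomes and members with a shared region on 6. Chromosome 19 held 12 members, of which 2 had a shared region and 4 more had a peak in 1 list. The share of other chromosome 19 genes reached is not given, so these counts do not show a concentration there.

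Other genes of protein synthesis were described in the same way. Shared regions reached 1 of 77 mitochondrial ribosomal protein genes (1.30%, 95% interval 0.0329 to 7.02), MRPS27, inside the gene (scores 81 and 88). Among 60 translation factor genes 4 were reached (6.67%, 1.85 to 16.2). EIF4A1 and EIF4A2, which encode helicases that unwind messages for the ribosome, were reached at the transcription end (100 and 186 for EIF4A1, 116 and 103 for EIF4A2), and EIF4A2 also had a region at its start (43 and 38). EEF2K, the kinase of an elongation factor, was reached inside the gene (114 and 146), and EIF3G, a subunit of an initiation factor, at an end without an assigned direction (32 and 84). Of 56 ribosome biogenesis genes 1 was reached, NOP56, a core protein of the box C/D snoRNA particles, at its transcription end (30 and 71). Of a list of 10 paralogues and ribosomal fusion genes 1 was reached, RPL7L1, also at the transcription end (43 and 76). The readthrough gene RPL17-C18orf32, which spans RPL17 and its neighbour and was not in that list, was reached inside by the RPL17 region. The interval of the ribosomal protein genes, 4.59 to 19.4%, overlaps those of these lists, which does not decide whether they differ, and a difference was not tested. At the transcription end, shared regions reached 8 of 77 members and 0 of 69 mitochondrial ribosomal protein genes with a known direction. The counts there were 2 of 49 translation factor genes, 1 of 50 ribosome biogenesis genes and 1 of 7 paralogues and fusion genes.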

How the data were processed

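Chromatin came from formaldehyde-fixed, sonicated cells and libraries were PCR-amplified, per the labels' protocols. The submitters' processing notes name bcl2fastq 2.20.0.422, Bowtie2 2.3.4.1, MACS2 2.1.2 and hg38. For settings, peak threshold, duplicate reads, use of the input as control, the antibody and the placing of reads that match processed pseudogenes of ribosomal protein genes, the answer is not given in the sources used here. For each ChIP replicate the authors deposited a list of peaks with a score in whole numbers on an unstated scale.

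Starts were counted from 1. Genes came from RefSeq (GRCh38.p14), where 58961 of 59792 entries lay on primary chromosomes. Direction came from the RefSeq promoter table, for 15842 protein-coding genes and 62 of 77 members. For the other 15 members, RPS2 among them, it came from general knowledge. A region within 1000 bp of both ends was given to the end nearer its centre. Shares carry exact Clopper-Pearson 95% intervals. No test was run, because members and lists were chosen with earlier results of these data known. Members with a peak were named, except those not reported here, with the 5 unreached members nearest to a peak and up to 4 reached genes per comparison list. The code was tested on simulated data, on genes longer than 5000 bp and not on shorter ones. Python 3.11.15, scipy 1.17.1.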

Additional observations from a re-analysis of the deposited data

How the results depend on the processing

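No paired analysis was possible because the replicates belong to 1 group. The 8 members reached, all at the transcription end, were 6 with 50% reciprocal overlap (without RPL18 and RPS28) and 8 with centres within 200 bp or a window of 5000 bp. Leaving out a replicate gave 9 to 15 members reached, 9 to 14 at the transcription end, 6 to 8 of the large and 3 to 7 of the small subunit. Leaving out replicate 1 gave the 15, 14 and 7. Among peaks at or above the list median 1 member was left, RPL41, so that the counts were 1 reached, 1 at the transcription end, 1 of the large and 0 of the small subunit, 1 region with another gene and a percentile of 75.9; replicate 1 then reached 1 member and replicate 2 reached 4. Within 500 bp, 5 members were reached, 4 of them at the transcription end (RPL13 then counts as inside), with 1 of the small subunit and 4 regions at another gene; replicate 1 then reached 4 members and replicate 2 reached 9. The small subunit also had 1 with 50% reciprocal overlap, and the ribosome biogenesis list had 3 within 5000 bp. No setting for shared regions put a member at the transcription start. For the settings of score, overlap and window, the shares of other protein-coding genes are not given. Whether the members' share still exceeds that of other genes there, as among peaks at or above the list median, is therefore not known.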
